A study of Mus musculus with 35 samples.

Results

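Skin taken 2 weeks after a single 25 Gy dose to the flank (radiated week 2, n = 4 libraries) was compared with skin of mice that had no radiation (sham, n = 3 libraries). These are 7 of the 35 bulk RNA-sequencing libraries of the series, chosen by their labels, and all 36106 genes of the count table were considered. Every mouse was labelled as a female of the inbred strain C57BL/6J, 10 weeks old at the start, with no other allele or agent named. The dose was given to the left flank over 420 s at 3.6 Gy per min, and the skin was shaved after radiation. The labels give no week for sham skin and no hour of sampling, so the time since the start and the group cannot be told apart here. Control skin of week 2 (n = 4) is used beside these groups. It carries the replicate numbers of the radiated skin, and since 35 libraries came from 19 mice, the radiated and control libraries of 1 number were taken to be from 1 mouse. The position of the control skin is not labelled. Radiated skin of week 1 and of week 3 (n = 4 each) is used as the neighbouring times. The labels name sham, radiated and control samples as replicates without saying that each sham sample is from a mouse of its own. P-values measure the spread between these samples.

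Skin is renewed by dividing cells at the base of the epidermis and, during the growth phase of the hair cycle (anagen), by the matrix cells of the hair bulb, which are among the fastest dividing cells of the body. Matrix cells give rise to the hair shaft, made of hair keratins and keratin-associated proteins, and to the inner root sheath that moulds it. Ionizing radiation breaks DNA and activates p53, which stops the cell cycle or starts apoptosis. Radiation dermatitis, the skin reaction that the series models, develops over weeks as damaged epidermis, vessels and immune cells respond.

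Totals of the 7 libraries ran from 17362725 to 23846348 counts. The replicates differed by more than counting noise in all 9 pairs within these groups. Levels are given as CPM, a library's counts scaled to a common total after TMM scaling (trimmed mean of M values). On this scale a floor of 3 counts is 0.13 to 0.175 CPM in these libraries, and it covers counting error only. The marker lists matched skin: markers of epidermis (Krt5, Krt14, Krt1 and Krt10) summed to 7389 to 14419.8 CPM in sham and 10858 to 19654 CPM in radiated week 2, and 4 fibroblast markers to 3334 to 7566 and 2988 to 8513 CPM. All 7 libraries also held skeletal muscle RNA, with 7 muscle markers at 7081 to 18905 CPM in sham and 12487 to 24976 CPM in radiated week 2. Lymph node was nearly absent, with 3 B cell markers summing to at most 1.94 CPM. The mice are labelled as female, and 4 Y-linked genes had counts in all 35 libraries. Kdm5d (7.53 to 23.4 CPM) and Uty (5.42 to 29.3 CPM) held most of them, while Ddx3y was at 0.477 to 3.5 CPM and Eif2s3y at 0.0931 to 1.34 CPM, beside 223 to 364 CPM for its X-linked relative Eif2s3x. The source of these counts was not tested. In bulk samples, fewer cells of a type and less RNA per cell cannot be told apart.

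Of 18036 genes tested with edgeR's quasi-likelihood test, 912 passed a Benjamini-Hochberg adjusted p of 0.05, which is 5.06% of the genes tested. Radiated week 2 was higher than sham for 389 of them (2.16%) and lower for 523 (2.9%). In 891 of the 912 the ranges of the groups did not overlap, against 20.9% of all genes tested (9.39% higher and 11.5% lower). Calls and overlap were read from the same 7 libraries, so the overlap adds no separate support. The median log2 fold change over all genes tested was -0.01, that of the genes called higher 1.54 and that of the genes called lower -1.87. An unadjusted p under 0.05 was reached by 23.6% of all genes tested, and DESeq2's Wald test called 6.85% of its 19321 genes higher and 5.77% lower, which are the shares to read list counts by those rules against. On simulated data for this comparison, 31.8% of the calls of DESeq2's Wald test were false, against 4.7% for edgeR. A change of more than 16-fold was estimated for 141 genes that fell and 23 that rose. Of the genes that fell, 59 belonged to the 3 lists of hair structural genes, and 29 had no count in any radiated library of week 2. The call count leaned on single libraries. It was 107 without sham replicate 3, 193 without sham replicate 2, 180 without radiated replicate 3 and 1398 without radiated replicate 1. Without sham replicate 3 the split was 14 higher and 93 lower. Of 139 genes named here and called, 41 were also called without sham replicate 3 and 59 without sham replicate 2, and 58 of 137 without radiated replicate 3. Krt71, Tchh, Shh, Mki67, Cenpf, Foxq1, Fermt1, Oxtr, Per2, Npas2, Nr4a3, Cd14, Irak3, Rcan1, Clec7a, Cd86 and Hoxb8 were among the 37 called under all 13 alternative settings. A log2 fold change above 0 means a higher level in radiated week 2, and a log2 change is given in brackets beside its adjusted p from here on. With library totals in place of TMM factors, the split was 277 higher and 688 lower, and the median over all genes tested was -0.14.

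**Figure D1:**
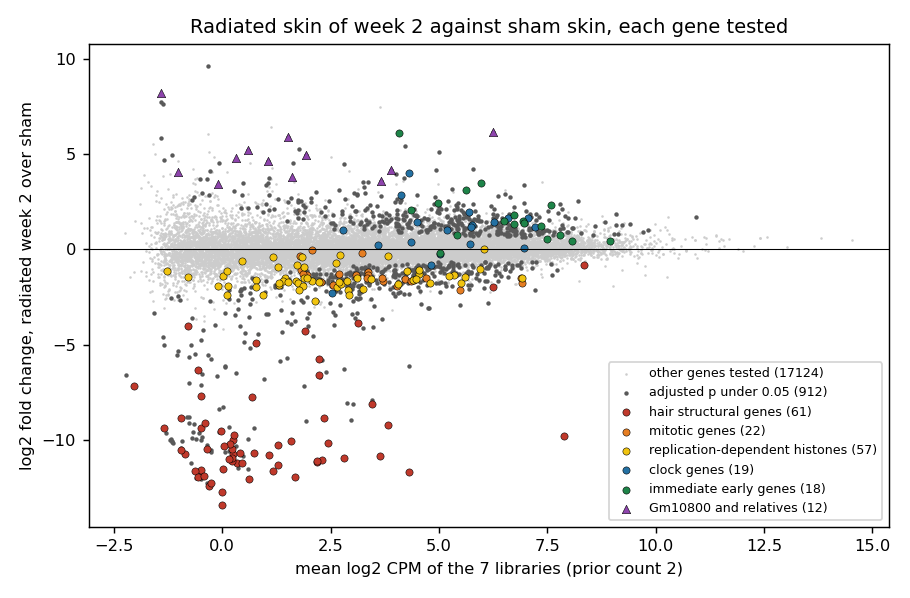
Log2 fold change of radiated week 2 over sham (y axis) against the mean log2 CPM of the 7 libraries (x axis) for 18036 genes, with gene lists in colour. The 61 hair structural genes lie below 0, most of them far below, and mitotic and all but 1 of the histone genes below 0, while clock and immediate early genes lie mostly above 0 and Gm10800 and its relatives (triangles) all above 0.

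Genes that build the hair made up many of the deepest decreases. All 12 hair shaft keratins tested fell, as did 10 of 11 genes of the inner root sheath and companion layer and 37 of 38 keratin-associated protein genes tested, with medians of -10.10, -9.22 and -10.74 on the log2 scale. Another 20 of the 58 keratin-associated protein genes in the table had too few counts to be tested, and those tested passed the filter through their sham counts, so this count describes the list and tests nothing about it. With the 12 keratin-associated genes that had no count in radiated skin set to their bound, the median was -9.62. The 81 genes of these 3 lists took 0.315%, 3.69% and 4.71% of the counts of the 3 sham libraries and 0.0369%, 0.0367%, 0.03% and 0.0267% of the 4 radiated libraries. The highest radiated library thus lay below the lowest sham library, although sham replicate 1 held far less hair RNA than the other sham libraries. Leaving out single libraries gave 9 to 12 lower calls among the shaft keratins, 7 to 10 among the sheath genes and 14 to 54 among the keratin-associated genes, and no higher call. The hair cycle phase of the sham mice is not labelled, so phase and group cannot be told apart.

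Krt71 (chr15:101733949-101743109, minus strand), a keratin of the inner root sheath, stood at 499.7, 4968 and 5148 CPM in sham and 0.575, 3.68, 0.181 and 0.0545 CPM in radiated week 2. Every radiated library was lower than every sham library by more than 2 orders of magnitude, with a log2 difference of -11.68 (SE 1.40, adjusted p = 0.00706). Tchh (chr3:93442330-93449077, plus strand), which encodes trichohyalin, the protein that hardens the sheath, was at 1304, 19678 and 24266 CPM in sham and 11.8, 31.1, 11.6 and 14.5 CPM in radiated skin, a log2 change of -9.78 (adjusted p = 0.00507). Krt33b, a cortex keratin of the shaft, was at 14.2, 99.6 and 124 CPM in sham and at 0 in 3 of the 4 radiated libraries, with a single count in replicate 2. The ratio of sham to radiated means was 6350.0 (95% counting interval 1140.0 to 251000.0). Krt73, Krt87 and the arginine deiminase gene Padi3, whose enzyme acts on trichohyalin, showed the same separation of the groups. Krt73 read 33.5, 451 and 474 CPM in sham and 0 to 0.234 CPM in radiated skin. The keratin-associated protein gene Krtap4-2 was at 1.5, 122 and 72.1 CPM in sham and had no count in 4 radiated libraries, so that sham was at least 429-fold higher, taking the floor of 3 counts in each library. Krtap11-1, Krtap9-3, Krtap22-2 and Krtap28-13 also had no count in radiated week 2, with lower bounds of 266, 220.0, 194 and 156-fold. The predicted genes Gm10229, Gm11567 and Gm11937 were at 0 as well. Genes of the keratin-associated families are near-identical in sequence, and the estimate splits reads among them, so their single values are uncertain. Krt79, of the upper follicle, was the sheath and companion list member that did not pass.

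The regulators that run the hair matrix were lower too, with 14 of 18 genes of this list passing and a median of -3.21. The lower calls numbered 5 without radiated replicate 3, 6 without sham replicate 3 and 7 without sham replicate 2. Foxn1 (chr11:78357577-78386558, minus strand), the transcription factor mutated in nude mice, read 11.9, 49.8 and 58.5 CPM in sham and 4.82, 7.25, 4.06 and 4.36 CPM in radiated skin. The groups did not overlap, and the log2 change was -2.97 (SE 0.48, adjusted p = 0.0146). Hoxc13, which switches on hair keratin genes, was at 22.2, 85.7 and 79 CPM in sham and 4.87, 2.05, 3.79 and 8.83 CPM in radiated skin (-3.67, adjusted p = 0.0118). Shh, the Hedgehog ligand made at the tip of the matrix, was at 9.71, 6.5 and 23.6 CPM in sham and 1.19, 0.585, 0.632 and 1.42 CPM in radiated skin (-3.78, adjusted p = 0.00826). Ptch1, the Hedgehog receptor and itself a target of the pathway, fell by a smaller amount, from 128, 101 and 179.6 CPM to 53.2, 48.2, 42.7 and 29.3 CPM (-1.66, adjusted p = 0.0121). Lef1, Msx2 and Dlx3, transcription factors of matrix cells, changed by -3.08, -3.35 and -2.79. S100a3, a calcium-binding protein of the hair cuticle, changed by -8.06 (adjusted p = 0.00473) and lay at 27.4 to 319 CPM in sham and 0.531 to 0.858 CPM in radiated skin. Gata3, which specifies the inner root sheath and is also expressed in epidermis, differed by -1.08 and did not pass (adjusted p = 0.0611).

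Stem and signalling genes of the follicle moved less. Of 16 stem and progenitor genes, 5 fell: Lgr5, a marker of cycling follicle stem cells, from 20.2, 61.3 and 24.6 CPM to 7.48, 7.78, 10.7 and 7.08 CPM, and Lhx2, Foxc1, Tbx1 and Lrig1 with log2 changes of -1.72, -1.65, -1.38 and -0.99. Krt15 and Cd34, bulge markers that are also expressed elsewhere in skin, differed by -0.44 (adjusted p = 0.451) and 0.55 (adjusted p = 0.342), with overlapping groups. Without sham replicate 3 the stem and progenitor list had 1 call. Axin2, a read-out of Wnt signalling, and Wnt5a changed by -1.25 and -1.26, and with Ptch1 they were the 3 called of 21 hair cycle signal genes. In the dermal papilla list 2 of 13 fell, Sostdc1 (-2.36) and Hhip, a Hedgehog inhibitor (-2.07). The 3 hair cycle signal calls were lost without sham replicate 3 or radiated replicate 3, and the dermal papilla list had no call without sham replicate 2. Among 13 melanocyte genes tested, Slc24a5, an ion exchanger of the pigment organelle, was the gene that fell (-2.58, adjusted p = 0.0322), and the median was -1.48. Without sham replicate 3 that median was -0.23 with no call. Tyr, the key enzyme of melanin synthesis, read 4.99, 1.52 and 16.9 CPM in sham and 0.929, 1.05, 1.76 and 3.27 CPM in radiated skin, and did not pass (adjusted p = 0.12).

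Among the decreases with the smallest p outside the gene lists were further genes of hair and cornified layers. Krt87 stood at 44.9, 382 and 483 CPM in sham and 0.664, 0.526, 0.497 and 0.708 CPM in radiated skin, and Padi1, Crnn, Lyg2 and Capn8 went from 2.61 to 83.8, 6.45 to 114, 3.27 to 69.4 and 1.68 to 38.9 CPM to 0 to 0.0585, 0 to 0.292, 0 to 0.0903 and 0 to 0.0451 CPM. Foxq1, the transcription factor of the hair medulla, fell from 34.2, 54.3 and 64.3 CPM to 8.05, 10.6, 13.4 and 8.55 CPM (-2.33, adjusted p = 0.00699). Other genes varied less within sham. Fermt1, which encodes kindlin-1, an integrin activator of keratinocytes, read 55, 72.3 and 57.2 CPM in sham and 18.6, 16, 17.6 and 19.7 CPM in radiated skin (-1.77, adjusted p = 0.00473). The oxytocin receptor gene Oxtr read 46.8, 48.3 and 28.7 and 7.12, 7.95, 10.1 and 8.99 CPM (-2.27, adjusted p = 0.00483). Slc45a3, a solute carrier gene, changed by -2.25, also without overlap of the groups.

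Most control libraries of week 2 also held little hair RNA. In control skin of week 2 the 81 hair structural genes took 0.334% of the counts in replicate 1 and 0.0254% to 0.0388% in the other 3 libraries, and Krt71 read 742, 0.172, 0 and 22.3 CPM. The difference between radiated and control skin of week 2 passed for none of the 13 members of the 3 lists that could be tested, with or without the replicate as a block. Of all 17345 genes tested there, 1 passed without the block and 641 with it. The median difference was -0.95 over 4 shaft keratins and -4.23 over 8 sheath genes, the 1 keratin-associated gene tested differed by -0.44, and control replicate 1 held the highest Krt71 level.

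**Figure D2:**
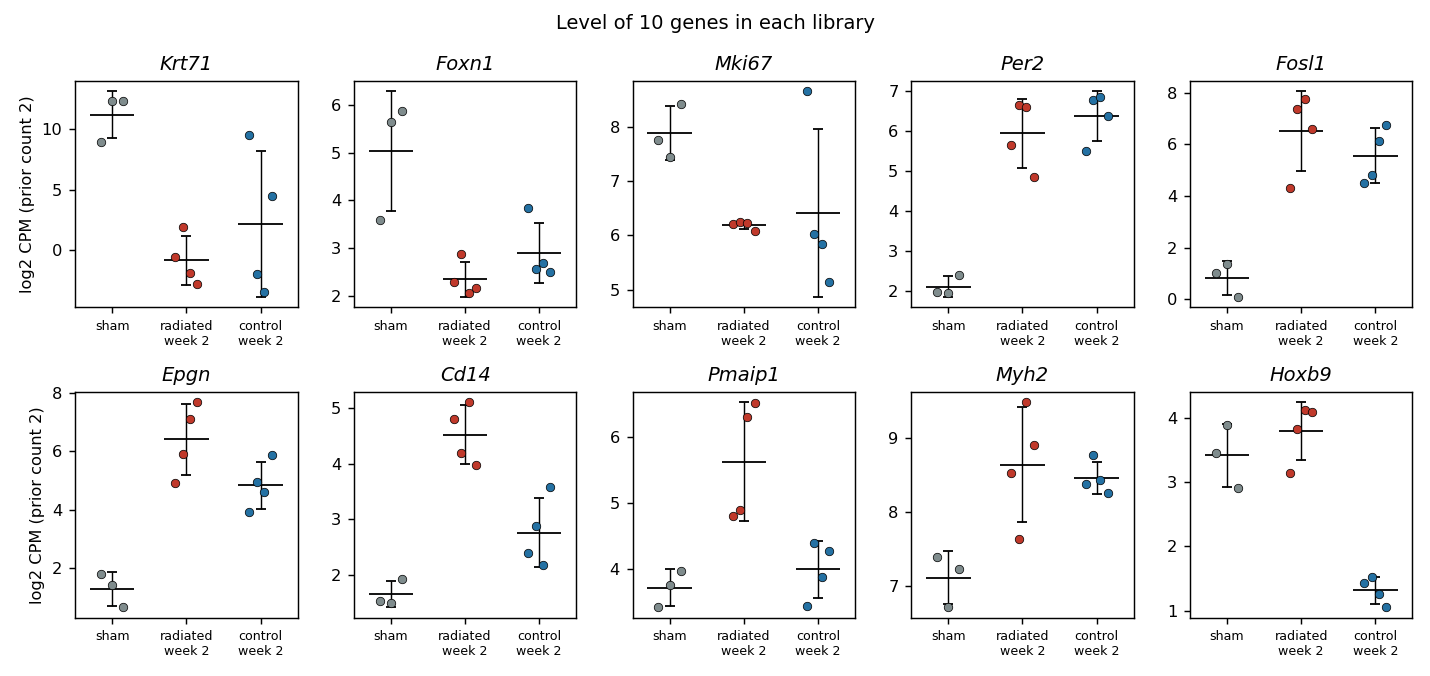
Log2 CPM of 10 genes in each library of sham, radiated week 2 and control week 2, with the mean (line) and SD (bars). Krt71, Foxn1 and Mki67 were lower in every radiated library than in every sham library, the next 6 genes were higher, and Hoxb9 overlapped with sham and lay above all 4 control libraries.

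Many genes of mitosis fell, and no gene of DNA replication was called. Of 22 mitotic genes, 14 fell and the other 8 were also below 0, with a median of -1.48. Of 25 DNA replication genes none passed in edgeR, 7 had an unadjusted p under 0.05 (28% against 23.6% of all genes), DESeq2's Wald test called 2 lower (8% against 5.77%), and the median was -0.26. The replication-dependent histones, whose transcripts are made in S phase, had 29 of 57 tested lower, none higher and a median of -1.59. Mki67 (chr7:135689784-135716361, minus strand), whose protein Ki-67 marks cycling cells, read 216, 175 and 344 CPM in sham and 74.2, 76.2, 74.8 and 67.3 CPM in radiated week 2. The 4 radiated libraries lay close together and below all sham libraries, with a log2 change of -1.75 (SE 0.23, adjusted p = 0.00826). Cenpf, a kinetochore protein gene, read 101, 82.7 and 131 CPM and 27.1, 20.9, 22.8 and 24.8 CPM (-2.13, adjusted p = 0.00473). Top2a, topoisomerase II alpha, and Cdk1, the kinase that starts mitosis, changed by -1.49 and -1.29, and Ccnb1, its cyclin partner, by -1.86. Bub1b, of the spindle checkpoint, changed by -1.64. Aspm, a spindle pole gene outside the lists, changed by -1.98. H1f5, a linker histone, read 34.2, 27.6 and 60.9 CPM and 11.9, 9.76, 15.3 and 17.3 CPM, and H3c2, a core histone H3 gene, 12.1, 9.58 and 20.3 CPM and 4.03, 3.27, 4.83 and 3.54 CPM. Pcna, the sliding clamp of DNA polymerase and also a p53 target, read 41.9, 34.5 and 42 CPM in sham and 40.8, 57.6, 50.2 and 39.7 CPM in radiated skin, with overlapping groups (0.25, adjusted p = 0.459). Leaving out single libraries gave 3 to 15 lower calls among mitotic genes, 5 to 25 among histones and none among replication genes.

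Promoters of mitotic genes are shown because these genes moved together. Mitotic genes are known for CCAAT boxes and for a cell cycle homology region, TTTGAA in its plain form, near the start. In RefSeq promoters (GRCm38.p6, 250 bases before to 50 after the start), CCAAT on either strand was in 16 of 18 promoters of mitotic genes (88.9%), 16 of 23 of DNA replication genes (69.6%) and 37.4% of 32851 promoters in all. TTTGAA was in 13 of 18 (72.2%), 2 of 23 (8.7%) and 17.9%. The 150 bases before the start of 4 genes follow, 5′ to 3′ along the gene, with CCAAT and TTTGAA on either strand in capitals. They are Cdc20, an activator of the anaphase-promoting complex (chr4:118437344-118437493, minus strand), Cdk1 (chr10:69352913-69353062, minus strand) and Ccnb1 (chr13:100786487-100786636, minus strand), which fell, and Pcna (chr2:132253181-132253330, minus strand), which did not pass.
Cdc20: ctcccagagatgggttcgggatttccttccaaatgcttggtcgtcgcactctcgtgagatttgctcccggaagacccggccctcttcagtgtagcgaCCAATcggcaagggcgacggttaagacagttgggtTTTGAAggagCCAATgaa
Cdk1: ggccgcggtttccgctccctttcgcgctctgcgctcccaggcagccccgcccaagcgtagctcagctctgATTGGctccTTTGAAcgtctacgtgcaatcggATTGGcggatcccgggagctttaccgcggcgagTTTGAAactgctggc
Ccnb1: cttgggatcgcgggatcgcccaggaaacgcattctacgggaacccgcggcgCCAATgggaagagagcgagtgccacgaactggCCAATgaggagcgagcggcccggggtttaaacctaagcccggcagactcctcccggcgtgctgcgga
Pcna: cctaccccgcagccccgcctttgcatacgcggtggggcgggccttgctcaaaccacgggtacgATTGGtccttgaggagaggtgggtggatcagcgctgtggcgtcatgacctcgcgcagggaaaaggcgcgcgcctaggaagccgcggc
The Cdc20 segment held 2 CCAAT and 1 TTTGAA match, that of Cdk1 2 and 2, that of Ccnb1 2 and 0, and that of Pcna 1 and 0. These matches describe the letters of the windows. Cdc20 itself read 25.1, 17 and 35 CPM in sham and 7.74, 7.54, 7.54 and 9.81 CPM in radiated skin (-1.66, adjusted p = 0.0141).

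In 3 of 4 control libraries of week 2, mitotic RNA was low too. Mki67 read 402, 64.7, 57.2 and 35.1 CPM there, and the 22 mitotic genes summed to 1378, 266, 252 and 165 CPM, against 306, 279, 313 and 323 CPM in radiated skin and 835, 658 and 1260.2 CPM in sham. Control replicate 1, the library high in mitotic RNA, is the library that was also high in hair RNA. No mitotic gene passed between radiated and control skin of week 2, with the replicate as a block or without. From week 2 to week 3 of radiated skin, 12 of the 22 mitotic genes rose, beside 3.6% of all genes tested. Mki67 then reached 100.2, 149.8, 135 and 224 CPM (1.08, adjusted p = 0.0264).

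Of 21 genes of the p53 response tested, 3 rose. In all, 20 of the 21 lay above 0, and the median was 0.91. Pmaip1, which encodes the pro-apoptotic protein Noxa, rose from 10.5, 13.3 and 15.5 CPM to 27.7, 29.7, 79.3 and 91.6 CPM, with replicates 3 and 4 far above the other radiated libraries and no overlap with sham (2.12 ± 0.46, log2 change ± SE, adjusted p = 0.0359). Phlda3, an inhibitor of Akt, read 13.1, 9.71 and 10.3 CPM in sham and 25.4, 22.2, 47.8 and 34.6 CPM in radiated skin (1.56, adjusted p = 0.0244), and Ccng1, cyclin G1, 170.2, 98 and 91 and 242, 227, 229 and 221 CPM (0.94, adjusted p = 0.0496). Cdkn1a (chr17:29090976-29100727, plus strand), the cell cycle inhibitor p21, was at 317, 478 and 357 CPM in sham and 426, 804, 1760.3 and 1003 CPM in radiated skin. Radiated replicate 1 fell within the sham range and the other 3 lay above it, and the difference of 1.38 (SE 0.42) did not pass (adjusted p = 0.0922). Mdm2, the ligase that removes p53, differed by 0.94 (adjusted p = 0.0997), and Eda2r by 1.64 (adjusted p = 0.0506). Against control skin of the same number, with the replicate as a block, Pmaip1 was higher by 1.66 (adjusted p = 0.04) and Cdkn1a by 0.94 (adjusted p = 0.0459). Phlda3 and Ccng1 differed by 0.48 and -0.48 there and did not pass. Without the block no p53 target passed between radiated and control skin of week 2. DESeq2's Wald test called 10 of 22 p53 targets higher against sham (45.5% against 6.85% of all genes). In edgeR none of the list was called without sham replicate 2, sham replicate 3 or radiated replicate 3, and 8 were called without radiated replicate 1.

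Immediate early genes and growth factor genes of stressed keratinocytes were among the largest increases. Of 18 immediate early genes 4 rose, and the median was 1.44. None of the list was called without sham replicate 3 and 8 without radiated replicate 1, and the median was 0.72 without radiated replicate 3. Fosl1 (chr19:5447547-5455946, plus strand), an AP-1 subunit of migrating keratinocytes, read 1.94, 2.47 and 0.981 CPM in sham and 19.6, 164, 219 and 96.6 CPM in radiated skin. All 4 radiated libraries were above all sham libraries, and the log2 change was 6.10 (SE 0.84, adjusted p = 0.00826). Atf3, a stress-induced factor, Maff and the nuclear receptor Nr4a1 rose by 3.14, 2.44 and 3.51. Nr4a3, a relative of Nr4a1 outside the lists, had one of the smallest p-values of all increases, at 16, 10.3 and 6.51 CPM in sham and 151, 204, 283 and 166 CPM in radiated skin (4.20, adjusted p = 0.00473). Fosb, at 223, 234 and 8.42 CPM in sham and 142, 478, 2380.3 and 136 CPM in radiated skin, did not pass (adjusted p = 0.294).

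Epgn (chr5:91027464-91035215, plus strand), the EGF receptor ligand epigen, read 3.4, 2.6 and 1.5 CPM in sham and 30.2, 60.4, 135 and 205 CPM in radiated skin (5.42, SE 0.72, adjusted p = 0.00826). Ereg, the related ligand epiregulin, rose by 1.90 (adjusted p = 0.016), from 22.3 to 32.9 CPM to 53.5 to 131 CPM. Hbegf and Areg, further ligands of the receptor, read 17.4, 83.5, 172 and 231 CPM and 6.46, 21.3, 54.8 and 43.8 CPM in radiated skin against 9.05, 25.4 and 12.1 CPM and 3.27, 12.4 and 13.4 CPM in sham, and neither passed (adjusted p = 0.0579 and 0.185). Tslp, an epithelial cytokine of itch and allergy, rose from 0.353, 0.0867 and 0.0516 CPM to 3.58, 0.877, 1.35 and 3 CPM (3.69, adjusted p = 0.0336), and Serpinb3a, a protease inhibitor of stressed epidermis, from 0.0442, 0 and 0 CPM to 0.796, 0.175, 1.58 and 2.23 CPM. Tslp in sham replicates 2 and 3 and Serpinb3a in all sham libraries lay under the floor of 3 counts. Serpinb3a in radiated replicate 2 lay at that floor, so the sizes of both changes are uncertain.

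Several of these genes were above sham in control skin of week 2 as well. Fosl1 read 22.9, 28.1, 70.1 and 108 CPM there, Epgn 15.2, 30.5, 24.4 and 58.8 CPM and Nr4a3 44.2, 83.5, 87.5 and 204 CPM, in each case above all 3 sham libraries in all 4 control libraries. With the replicate as a block, Epgn was higher in radiated skin by 1.56 (adjusted p = 0.0268), while Fosl1 and Nr4a3 differed by 0.95 and 1.13 and did not pass (adjusted p = 0.331 and 0.127). The same test passed for Il1b (2.21, adjusted p = 0.0193), the interleukin described with the myeloid genes. Without the block, Epgn and Il1b did not pass.

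The keratins of wounded epidermis were high in 1 radiated library. Krt6a read 128, 884 and 264 CPM in sham and 429.6, 437, 632 and 4383 CPM in radiated skin, Krt16 20.5, 271 and 63.2 CPM and 91.2, 135, 160.4 and 5165 CPM, and Krt6b 3.14, 8.41 and 1.24 CPM and 5.53, 2.69, 26.1 and 3022 CPM. Replicate 4 stood above all other libraries in each of these genes, the other 3 radiated libraries overlapped with sham except for Krt6b in replicate 3, and none of the 3 genes passed (adjusted p = 0.305, 0.222 and 0.128). S100a8, an alarmin of neutrophils and inflamed epidermis, read 0.442, 0.347 and 0.207 CPM and 0.0442, 0, 2.21 and 6.32 CPM and had too few counts to be tested. S100a9, its partner, read 0.132, 0.13 and 0.155 CPM and 0.487, 0.526, 3.07 and 16 CPM (adjusted p = 0.0695), again highest in replicate 4. Of 18 genes tested in the list of keratinocyte stress and alarmin genes, 3 rose, and the median of 2.40 was the highest of any list with 10 or more genes tested. Leaving out single libraries moved that median between 0.84 and 3.37. No gene of the list was called without sham replicate 3 or radiated replicate 3, and 1 without sham replicate 2 or radiated replicate 4. Of 25 epidermal differentiation genes 2 rose, Alox12b and Aloxe3, lipoxygenases of the water barrier, by 1.77 and 1.40. None of the 25 was called with the replicate block or without sham replicate 2 or 3 or radiated replicate 3. Without radiated replicate 1, 5 were called. Krt5, Krt14 and Krt10 differed by 0.17, 0.74 and 0.59, with overlapping groups (adjusted p = 0.804, 0.391 and 0.314). The Krt5 difference turned to -0.12 without sham replicate 3. Itgb1, the beta-1 integrin of basal cells, rose by 0.80 (adjusted p = 0.0497), the 1 call of 13 basal epidermis genes. That list had no call with DESeq2 size factors, with the replicate block or without any 1 library other than radiated replicate 1. Without radiated replicate 1 it had 5.

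**Figure D3:**
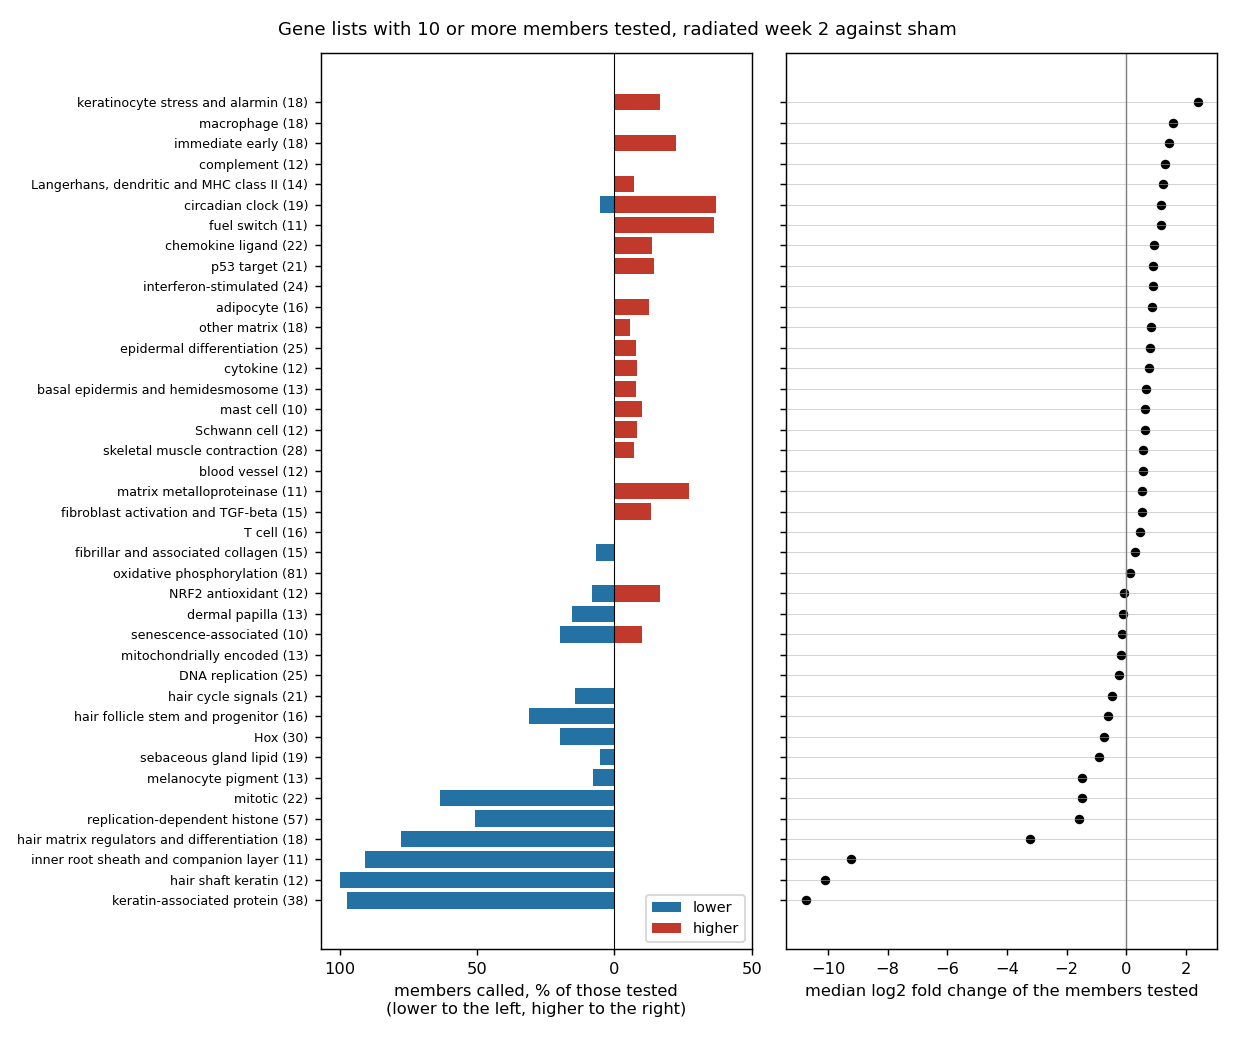
Share of the tested members of each gene list called higher (right) or lower (left) in radiated week 2 against sham, and the median log2 fold change of the members, for lists with 10 or more members tested (number in brackets). The 3 hair structural lists, the hair matrix regulators, histones and mitotic genes stand at the bottom, and the stress, macrophage and immediate early lists at the top.

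Few myeloid and immune genes passed against sham, although most lay above 0. None of 18 macrophage genes passed in edgeR, while 17 lay above 0, the median was 1.58 and 12 had an unadjusted p under 0.05 (66.7% against 23.6% of all genes). DESeq2's Wald test called 9 higher (47.4% against 6.85%) and 1 lower of 19. Radiated replicate 1 stood apart: Csf1r, the receptor for macrophage growth factor, read 35.1, 25.3 and 20.7 CPM in sham and 193, 45.9, 52.6 and 47.2 CPM in radiated skin, and Lyz2, lysozyme, 65.6, 55.9 and 42.7 CPM and 535, 109.7, 129.6 and 108 CPM. The remaining 3 radiated libraries still lay above sham for both genes. Without radiated replicate 1 the list had 3 higher calls and a median of 0.74. C1qb, a complement subunit made by macrophages, differed by 1.74 (adjusted p = 0.0982), and Mrc1, the mannose receptor, by 1.59 (adjusted p = 0.1). Against control skin of week 2 with the replicate as a block, 12 of 18 macrophage genes were higher and none lower, beside 2.85% of all genes called higher. Among them C1qb was higher by 1.85 (adjusted p = 0.00441), Mrc1 by 1.82 (adjusted p = 0.00566) and the monocyte receptor gene Ccr2 by 2.06 (adjusted p = 0.00441). Without the block none of the 18 macrophage genes passed, with C1qb at 2.00 (adjusted p = 0.167).

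Single myeloid genes did pass against sham. Cd14, the co-receptor for bacterial lipopolysaccharide, rose from 2.83, 2.73 and 3.72 CPM to 27.8, 18.1, 34.4 and 15.6 CPM (2.96, SE 0.34, adjusted p = 0.00699). Csf3r, the receptor for granulocyte growth factor, rose from 2.12, 1.43 and 1.19 CPM to 8.36, 3.04, 21.1 and 8.12 CPM (2.68, adjusted p = 0.0415), while the neutrophil markers Retnlg and Cxcr2 stood at 0.0442, 0, 1.17 and 0.163 CPM and 13.1, 6.78, 12.3 and 23 CPM in radiated skin. Retnlg was at or under the floor of 3 counts in 3 of those 4 libraries and was not tested, and Cxcr2 did not pass (adjusted p = 0.156). Il1b, the inflammasome cytokine, read 0.751, 0.997 and 0.258 CPM in sham and 1.55, 7.19, 36.8 and 18.8 CPM in radiated skin, with replicate 1 the lowest and replicate 3 the highest (4.56, adjusted p = 0.0401). Irak3, a brake on Toll-like receptor signalling, rose by 1.60 (adjusted p = 0.00826). Clec7a, the beta-glucan receptor dectin-1, and Cd86, a co-stimulatory ligand, were chosen after their values were seen. Clec7a read 3.22, 3.38 and 1.34 and 21.4, 10.9, 27.5 and 23.2 CPM (2.96, adjusted p = 0.00986), and Cd86 4.33, 4.6 and 2.63 and 18.4, 11.2, 15.5 and 17.2 CPM (2.02, adjusted p = 0.01).

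Chemokines with a call were Ccl9, from 26.1, 14 and 16.8 CPM to 119, 47.4, 56.5 and 92 CPM (2.06, adjusted p = 0.0208), Ccl11, the eosinophil attractant eotaxin, from 6.98, 10.6 and 2.94 CPM to 27.5, 19.4, 30.8 and 23.7 CPM (1.89, adjusted p = 0.032), and Ccl17. Ccl17 had no count in sham and read 0.531, 0.409, 2.39 and 1.74 CPM in radiated skin, at least 9.12-fold higher at the floor of 3 counts per library. These were 3 of 22 chemokine genes tested, and none was called without sham replicate 3. Cd74, the invariant chain of MHC class II, rose from 112, 159.8 and 62.7 CPM to 402, 172, 632 and 441 CPM (1.89, adjusted p = 0.0476), and H2-Ab1, a class II chain, differed by 1.69 (adjusted p = 0.0581). Cd207, the langerin gene of Langerhans cells, read 4.02, 4.03 and 0.465 CPM and 5.09, 6.31, 7.68 and 8.55 CPM and did not pass (adjusted p = 0.223). Of 24 interferon-stimulated genes none passed in edgeR, 5 had an unadjusted p under 0.05 (20.8% against 23.6% of all genes), DESeq2 called 4 higher (16.7% against 6.85%), and the median was 0.90, or 0.42 without radiated replicate 1 and 1.36 without sham replicate 1. Ifit1 and Ifit3 read 52.1, 21.7, 14.1 and 44.7 CPM and 155, 27.9, 17.9 and 81.3 CPM in radiated skin against 28.2, 8.54 and 14.1 CPM and 51.6, 8.02 and 33.1 CPM in sham. Against control skin with the block, 9 of the 24 were higher, beside 2.85% of all genes, and none passed without the block. Of 16 T cell genes none passed in edgeR, 5 had an unadjusted p under 0.05 (31.2% against 23.6% of all genes), DESeq2 called 4 higher (25% against 6.85%), the median of 0.47 was 0.26 without radiated replicate 3, and Cd3e differed by 0.14 (adjusted p = 0.874), turning below 0 without sham replicate 3 (-0.17) or radiated replicate 3 (-0.13). Hdc, histidine decarboxylase of mast cells and other myeloid cells, rose by 2.01 (adjusted p = 0.0228), while Mcpt4, a mast cell protease gene, differed by 0.76 (adjusted p = 0.273). All 12 complement genes tested lay above 0 (median 1.29) and none passed in edgeR, 8 had an unadjusted p under 0.05 (66.7% against 23.6% of all genes) and DESeq2 called 6 of 13 higher (46.2% against 6.85%). Without radiated replicate 1 the complement median was 0.74.

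Few matrix genes passed against sham. Of 15 collagen genes 1 fell, Col11a1 (-1.28, adjusted p = 0.0397). Col1a1 (chr11:94936224-94953042, plus strand), the main collagen chain of skin, read 2701, 4401 and 1940.2 CPM in sham and 2763, 1264, 4974 and 3708 CPM in radiated skin, with overlapping groups and a difference of 0.08 (SE 0.45, adjusted p = 0.936) that turned below 0 with library totals (-0.036). Fn1, fibronectin, rose from 425, 502 and 323 CPM to 1610.5, 889, 988 and 683 CPM (1.32, adjusted p = 0.0453), and Tgfbi, a matrix protein induced by TGF-beta, by 1.05 (adjusted p = 0.0401). Fn1 was the 1 gene called of 18 in the list of other matrix genes, of which 17 lay above 0, with a median of 0.84. By an unadjusted p under 0.05 it held 44.4%, beside 23.6% of all genes tested, and DESeq2's Wald test called 6 of the 18 higher (33.3%, beside 6.85% of all genes). The Fn1 call was lost with library totals and without any 1 sham replicate, radiated replicate 2 or radiated replicate 3. Of 11 metalloproteinase and inhibitor genes tested, 3 rose, and none was called without sham replicate 2 or sham replicate 3. Mmp3, stromelysin-1, read 12.6, 10.6 and 4.65 CPM and 55.5, 39.9, 26.7 and 39 CPM (2.11, adjusted p = 0.0194), Mmp19 20.4, 14.4 and 17.7 CPM and 67.3, 58.8, 74 and 151 CPM (2.33, adjusted p = 0.0112), and their inhibitor Timp1 0.132, 0.477 and 0.568 CPM and 1.37, 1.7, 4.51 and 10.0 CPM (3.48, adjusted p = 0.049). Plaur, the urokinase receptor, rose by 2.27 (adjusted p = 0.0428). In the same list of senescence-associated genes, Lmnb1, lamin B1, and Hmgb2 changed by -1.21 and -0.92. Both are also high in dividing cells. Against control skin with the block, 5 of 15 collagens and 8 of 18 other matrix genes were higher, beside 2.85% of all genes, Col1a2 by 0.74 (adjusted p = 0.0332) and Fn1 by 1.04 (adjusted p = 0.037). Without the block no gene of either list passed. The prostaglandin synthase gene Ptgs2, chosen after its values were seen, rose from 5.25, 2.69 and 3.31 CPM to 14.5, 61.1, 89 and 72.3 CPM (3.98, adjusted p = 0.0111). Of 12 antioxidant genes driven by NRF2, 6 lay above 0, with a median of -0.07. In this list Hmox1 and Srxn1 rose by 1.44 and 1.67 and Gclm changed by -0.90, and none of the 12 was called without sham replicate 3.

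Genes of the circadian clock differed from sham in both directions. The core factors BMAL1 (gene Arntl) and NPAS2 drive Per, Cry and Nr1d genes and the output gene Dbp, and PER and CRY proteins inhibit them in turn, so the levels of all these genes depend on the time of day. Of 19 clock genes 7 rose and 1 fell. Per2 (chr1:91415982-91459324, minus strand) read 3.89, 3.77 and 5.22 CPM in sham and 50.2, 100.2, 97.1 and 28.8 CPM in radiated skin. Every radiated library was above every sham library, and the log2 change was 4.00 (SE 0.47, adjusted p = 0.00699). Dbp read 8.43, 4.42 and 5.06 CPM and 56.4, 43.5, 58.2 and 17.4 CPM (2.88, adjusted p = 0.0121), and Cry2, Bhlhe40, Nr1d2, Tef and Nr1d1 rose by 1.98, 1.68, 1.66, 1.43 and 1.27. Npas2 fell from 19.1, 12.7 and 11.6 CPM to 2.83, 4.27, 1.72 and 3.16 CPM (-2.27, adjusted p = 0.01), and Arntl differed by -0.83 without passing (adjusted p = 0.106). Control skin of week 2 read 44.8, 108, 115 and 82.4 CPM for Per2 and 4.37, 3.74, 3.01 and 4.22 CPM for Npas2, and no clock gene passed between radiated and control skin of week 2, with the block or without. From week 2 to week 3 of radiated skin 12 of the 19 clock genes fell and 1 rose, beside 4.81% of all genes called lower. Per2 then read 13, 6.06, 10.1 and 7.55 CPM (-2.88, adjusted p = 0.014). Leaving out single libraries gave 1 to 9 higher calls among clock genes against sham, with 1 without sham replicate 2 or sham replicate 3. The hour of sampling is not labelled, so hour and group cannot be told apart.

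Of 11 genes that respond to glucocorticoid and fasting 4 rose, with none called higher without sham replicate 2 or sham replicate 3. In this list 9 genes lay above 0 and 2 below, down to -1.69 on the log2 scale, and DESeq2's Wald test called 7 higher (63.6%) and 2 lower (18.2%), beside 6.85% and 5.77% of all genes tested with it. Fkbp5, a chaperone of the glucocorticoid receptor, read 105, 50.1 and 79.4 CPM in sham and 249.8, 229.8, 180.1 and 128 CPM in radiated skin (1.33, adjusted p = 0.041). Mt1, a metallothionein, read 39.5, 26.7 and 45.9 CPM and 88.4, 334, 398 and 177 CPM (2.74, adjusted p = 0.0208), Trim63, the muscle ubiquitin ligase MuRF1, 37.4, 15.6 and 16.2 CPM and 157, 163, 64 and 103 CPM (2.40, adjusted p = 0.0194), and Ucp3 rose by 1.17 (adjusted p = 0.0467). Against control skin of week 2 with the block, none of the 4 genes was higher in the radiated skin, and Ucp3 was lower (-1.12, adjusted p = 0.0301). Without the block no gene of this list passed.

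Of 28 skeletal muscle contraction genes 2 rose, and 26 lay above 0. None was called with library totals, with the replicate block, or without sham replicate 2 or 3 or radiated replicate 3 or 4. The 28 contraction genes summed to 63398, 20182 and 39713 CPM in sham and 67459.5, 78235, 44772 and 49178 CPM in radiated skin. Myh2, a myosin of oxidative fast fibres, and Tnnt1, the slow troponin T, rose by 1.65 (adjusted p = 0.0492) and 1.55 (adjusted p = 0.0331). Ckm, muscle creatine kinase, read 849, 379 and 540.0 CPM and 1052, 1291, 759 and 694 CPM and did not pass (adjusted p = 0.229). Ankrd2, a stretch-induced muscle protein gene, rose from 2.96, 1.6 and 3.36 CPM to 14.5, 41.9, 35.7 and 32.9 CPM (3.56, adjusted p = 0.00706). The median of the muscle list was 0.56, or 0.97 without sham replicate 1 and 0.33 without sham replicate 2. Control skin of week 2 held 83392, 147637, 95706 and 120173 CPM of the 28 genes, and with the block 16 of 27 tested were lower in radiated than in control skin, beside 0.848% of all genes called lower, among them Myh4 (-1.55, adjusted p = 0.0215). Without the block none of the 27 passed. Of 16 fat cell genes 2 rose, Slc2a4, the insulin-sensitive glucose carrier, by 1.18 and Retn, resistin, by 1.22. No fat cell gene was called with library totals or without sham replicate 3, radiated replicate 2 or radiated replicate 3, and 5 were called without radiated replicate 4. Adipoq, adiponectin, read 33.9, 56.7 and 25.9 CPM and 83.7, 83.9, 77.1 and 35.2 CPM and did not pass (adjusted p = 0.187). The part of muscle and fat content in the changes of other genes was not tested.

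Hox genes, which record position along the body, had 6 of 30 tested lower and none higher. The count was 2 without sham replicate 3 or radiated replicate 3 and 11 without radiated replicate 1. Besides Hoxc13, named above, these were 5 genes of the Hoxb cluster. Hoxb8 read 36.8, 35.3 and 41.6 CPM in sham and 8.36, 8.77, 8.85 and 5.56 CPM in radiated skin (-2.27, adjusted p = 0.00473), with control skin at 23.7, 6.24, 2.05 and 2.97 CPM, and Hoxb7, Hoxb6, Hoxb5 and Hoxb3 changed by -1.54, -1.70, -1.52 and -1.27. Hoxb9 (chr11:96271457-96276595, plus strand) was not called, at 10.9, 14.7 and 7.38 CPM in sham and 8.76, 14.1, 17.3 and 16.8 CPM in radiated skin (0.37, adjusted p = 0.517). In control skin of week 2 it read 2.61, 2.8, 2.31 and 1.98 CPM, below all 4 radiated libraries, and it was the single gene of 17345 (0.00577%) that passed between radiated and control skin of week 2 without the block (2.55, SE 0.26, adjusted p = 0.0363). The call was lost in 6 of 8 fits that left out 1 library, those without radiated replicate 3 or 4 or any 1 control replicate. Hoxc10 also stood below radiated skin there, at 0.712, 1.81, 0.611 and 0.886 CPM against 12, 6.49, 10.1 and 3.81 CPM, and passed with the block (2.97, adjusted p = 0.0215). Sham read 7.9, 7.24 and 6.25 CPM. With the replicate as a block, 641 genes passed between radiated and control skin of week 2 (3.7%), 494 higher (2.85%) and 147 lower (0.848%).

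**Figure D4:**
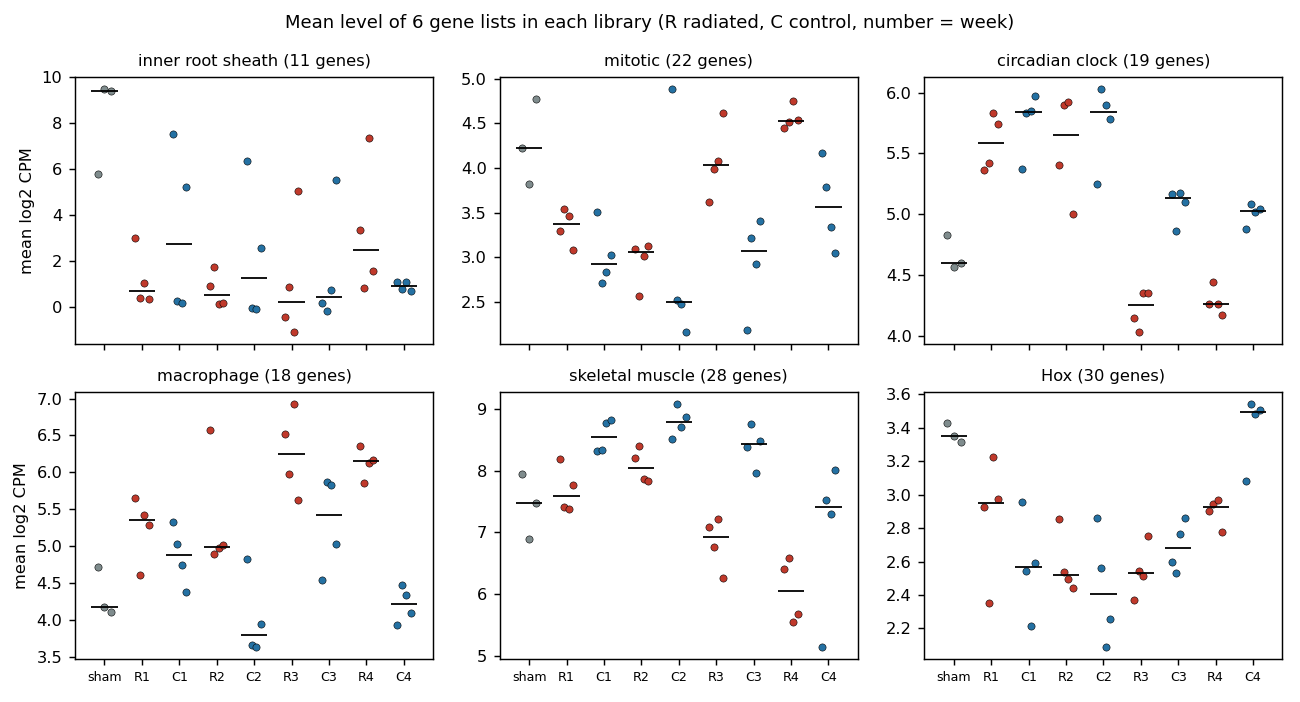
Mean log2 CPM over the tested members of 6 gene lists in each of the 35 libraries, with the median of each group as a line (R radiated, C control, number for the week). Sham has the highest median for inner root sheath genes, the 4 groups of weeks 1 and 2 have the highest medians for clock genes, and muscle genes are lower in every radiated library of weeks 3 and 4 than in those of week 2.

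The largest increase among called genes that averaged 5 CPM or more and had groups without overlap belonged to Gm10800 (chr2:98666547-98667301, minus strand), a predicted gene annotated as protein coding. Of the 10 largest increases, 5 were predicted genes of this kind (Gm10800, Gm10801, Gm10720, Gm10721 and Gm10722). Comparing all GENCODE M21 transcripts by words of 31 bases, the word length with which kallisto assigns reads by default, 12 genes in all shared words with Gm10800. They were Gm10800 and Gm10801 on chromosome 2, Gm21738 on chromosome 14 and 9 genes on chromosome 9, and all 12 were in the table. Their sequence resembles the mouse major satellite, the repeat of the chromatin around centromeres. The start of the transcripts of Gm10800 (chr2:98666547-98667301, minus strand) and Gm10801 (chr2:98662237-98664083, plus strand) is shown, bases 1 to 240 from GENCODE M21 (GRCm38), with the 30 bases present in the transcripts of all 12 genes in capitals.
Gm10800: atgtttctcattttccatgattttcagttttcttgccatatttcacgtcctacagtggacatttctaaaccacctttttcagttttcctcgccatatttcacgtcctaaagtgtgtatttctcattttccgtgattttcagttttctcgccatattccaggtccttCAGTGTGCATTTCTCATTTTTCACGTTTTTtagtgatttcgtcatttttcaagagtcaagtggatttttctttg
Gm10801: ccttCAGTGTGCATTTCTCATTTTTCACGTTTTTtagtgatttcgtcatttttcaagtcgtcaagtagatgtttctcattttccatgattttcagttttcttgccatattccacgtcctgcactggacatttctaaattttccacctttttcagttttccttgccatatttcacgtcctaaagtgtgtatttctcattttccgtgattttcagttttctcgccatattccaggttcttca
The Gm10800 transcript of 660 bases repeats itself. Shifted by 225 bases, 56.3% of its positions were identical, and by 58 bases 51.2%, against a median of 30.7% over shifts of 20 to 300 bases. Reads from sequence that these genes share cannot be assigned to 1 of them, so the split of counts among the 12 genes is uncertain and their sum is given here.

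Gm10800 read 5.39, 18.3 and 7.59 CPM in sham and 227, 56.9, 786 and 1887 CPM in radiated week 2. Radiated replicate 4 was the highest and replicate 2 the lowest, all 4 lay above all sham libraries, and the log2 change was 6.15 (SE 1.22, adjusted p = 0.0277). Gm10800 was called in 8 of the 13 alternative settings, with log2 changes of 4.73 to 6.83 over them. Fosl1 ran from 5.68 to 6.46, so the first rank among increases depends on the setting. Of the 12 genes, 7 passed and the other 5 were also above 0. Gm10721 rose by 4.96, Gm10801 by 5.92 and Gm10719 by 3.61, and in each of the 12 genes replicate 4 and then replicate 3 were the highest radiated libraries. The sum of the 12 genes was 14.1, 33.9 and 17.8 CPM in sham and 298, 81.8, 1031 and 2411 CPM in radiated week 2. Control skin of week 2 summed to 13.9, 23.6, 12.7 and 20.3 CPM. With the replicate as a block, Gm10800 was higher in radiated than in control skin by 6.13 (adjusted p = 0.0273), and it did not pass without the block. The groups were apart at every week. The 16 radiated libraries of the series summed to between 38.2 and 2411 CPM, and the 19 sham and control libraries to between 12.7 and 34.9 CPM, so that no radiated library overlapped with a library of unirradiated skin. Within radiated skin, the medians were 520.4 CPM at week 1, 665 at week 2, 179 at week 3 and 221 at week 4, with overlapping ranges.

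**Figure D5:**
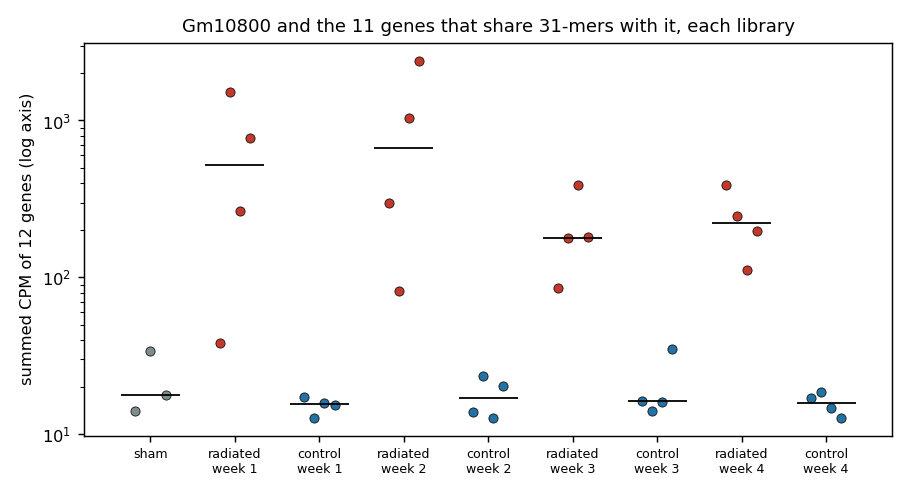
Summed CPM (log axis) of Gm10800 and the 11 genes that share 31-base words with it, in each of the 35 libraries by group, with the median of each group as a line. All 16 radiated libraries lie above the 19 sham and control libraries, and radiated week 2 runs from 81.8 to 2411 CPM.

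The other increases with the smallest p outside the lists came from genes of varied function. Rcan1, a calcineurin inhibitor, read 74.4, 83 and 64.3 CPM in sham and 173, 189, 217 and 206 CPM in radiated skin (1.41, adjusted p = 0.00706). Tmem43, a nuclear envelope protein gene, rose by 1.73, and Zfp729a, a zinc finger gene, by 2.20, each without overlap of the groups. Efhd2, a calcium-binding protein gene, rose from 52, 44.1 and 34.4 CPM to 108, 109, 122 and 151 CPM (adjusted p = 0.00826). Olfr1033, annotated as an olfactory receptor gene, read 29.9, 41.3 and 32.6 CPM and 152, 503, 460.5 and 331 CPM (3.38, adjusted p = 0.00706). Control skin of week 2 read 121, 353, 358 and 421 CPM, overlapping with radiated skin.

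Few genes passed between weeks 1 and 2 of radiated skin and many between weeks 2 and 3. Between radiated weeks 1 and 2, 2 of 17678 genes (0.0113%) passed, both higher at week 2. They were Nr4a3, at 62.7, 46.9, 47.7 and 45.6 CPM in week 1 (1.98, adjusted p = 0.0432), and Abra, an actin-binding activator of muscle gene expression, at 10.2, 12.3, 11.2 and 13.4 CPM in week 1 and 101, 100.2, 99.2 and 33.6 CPM in week 2 (2.82, adjusted p = 0.0432). Neither was called with library totals, without any 1 week 1 replicate, or without week 2 replicate 2 or 3, and 1 of the 2 was called without week 2 replicate 1. No gene passed with the replicate as a block. From week 2 to week 3, 1487 of 17676 genes passed (8.41%), 636 higher (3.6%) and 851 lower (4.81%). With library totals the split turned to 1229 higher and 502 lower, with a median of 0.25 over all genes. Of the lists described here, muscle contraction genes fell between these weeks (15 of 27 tested), as did fat cell genes (8 of 16), and of 13 metalloproteinase and inhibitor genes tested 5 rose and 1, Timp3, fell. Mmp3 went to 961, 165, 389 and 84.5 CPM (adjusted p = 0.0247) and Timp1 to 61.9, 49.6, 176 and 19.9 CPM (adjusted p = 0.0223). Cd14 reached 265, 139, 129 and 40.1 CPM (adjusted p = 0.022) and Csf3r 174, 85.1, 195 and 36.5 CPM (adjusted p = 0.0196) at week 3. Epgn fell back to 21.6, 22.3, 14.6 and 3.73 CPM (-2.77, adjusted p = 0.0373). Among 22 p53 targets tested, 5 fell and none rose between weeks 2 and 3, and 2 fell with library totals. The 5 included Ccng1, from 221 to 242 CPM to 59.5 to 126 CPM (adjusted p = 0.0173). Without single replicates the lower calls ran from 1 to 13 for muscle, 1 to 9 for fat cell genes and 1 to 7 for p53 targets, and the higher calls from 0 to 7 for metalloproteinases and inhibitors, with the lowest of each reached without radiated week 2 replicate 2. The count of genes called between weeks 2 and 3 was 134 without radiated week 2 replicate 2 and 235 without replicate 3.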

How the data were processed

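Bulk RNA of mouse skin was measured in 35 libraries, of which 3 sham and 4 radiated week 2 libraries form the main comparison. The authors deposited estimated counts for each gene, unscaled between samples. The authors used kallisto and DESeq2, per the labels' protocols, and Trim Galore 0.6.7, kallisto 0.46.2 and the build mm10 are named in the submitters' processing notes. Estimated counts are not whole and were rounded to whole numbers here. Reads shared by similar transcripts are split by such estimates, so single genes of a repeated family are uncertain. Strand handling is not given in the sources used here.

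Genes were filtered with filterByExpr, scaled with TMM factors and tested with edgeR 4.0.16 (quasi-likelihood, R 4.3.3) on the groups compared, at a Benjamini-Hochberg adjusted p of 0.05. A standard error is the absolute log2 change over the root of F. Library totals of the 7 libraries were 17362725 to 23846348 counts. Levels are CPM with TMM factors over 35 libraries. Plotted log2 CPM has a prior count of 2. Tested on simulated data for the sham comparison (18036 genes), edgeR recovered 9.2% of genes changed by 1 on the log2 scale and 73.5% of those changed by 2, with 4.7% false calls, and DESeq2 1.42.0 recovered 30% and 88%, with 31.8% false calls. Alternatives were DESeq2 size factors, library totals, no filter, DESeq2's Wald test, 1 fit of 35 libraries, the replicate number as a block, and leaving out each library.

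Radiated and control skin of week 2 share replicate numbers and, since 19 mice gave 35 libraries, probably mice. Their deviations from the group means correlated at 0.14 to 0.26 for each of 4 pairs (mean 0.2, other pairs -0.07). Each library correlated best with its own number. Radiated libraries of weeks 3 and 2, taken to be from different mice, correlated at 0.06 to 0.29 by number (mean 0.17, other pairs -0.06). There 3 of 4 correlated best with their own number, so the correlation cannot tell a shared mouse from a shared number. The numbers were taken as pairs from the count of mice.

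Named genes were the 10 largest increases and decreases among called genes that averaged 5 CPM or more and had groups without overlap, the 10 of each direction with the smallest p outside the gene lists and predicted genes, 8 fixed genes and members of the lists. The lists, members and tests were chosen with earlier results of these data known. Gene positions are from GENCODE M21 on GRCm38, which matched 35866 of 36106 identifiers. Promoters are from RefSeq. Krt85 and Xist are not analysed here, and some genes that met the naming rule are not reported here.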

Additional observations from a re-analysis of the deposited data

Results flagged for a closer look

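Among 177 named genes that averaged 1 CPM or more in radiated week 2, 9 had a library that stood apart from the other 3 radiated libraries by Dixon's criterion for 4 values. Chance flags about 1 in 20 such groups, and 9 of 177 is near that share, so no flag is read as a trait of its library. Replicate 4 was the high library for the wound keratins Krt6a (4383 CPM, the others 429.6 to 632) and Krt16 (5165 CPM, the others 91.2 to 160.4) and for Cdc20 (9.81 CPM, the others 7.54 to 7.74). The same library was the low one for Adipoq (35.2 CPM, the others 77.1 to 83.9), Hhip (0.817 CPM, the others 3.04 to 3.27), Hoxb8 (5.56 CPM, the others 8.36 to 8.85) and Abra (33.6 CPM, the others 99.2 to 101). Replicate 1 was the high library for the macrophage genes Csf1r (193 CPM, the others 45.9 to 52.6) and Lyz2 (535 CPM, the others 108 to 129.6).

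The level of radiated skin differed between weeks 2 and 3 for 1487 genes and between weeks 1 and 2 for 2 genes, by edgeR's test of each difference.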

How the results depend on the processing

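Against sham, 912 genes were called. The count was 2439 with DESeq2's Wald test, 3257 with 1 fit of 35 libraries and 497 with a replicate block, where sham and radiated numbers do not pair mice (correlations of -0.11 to 0.18), and it ran from 107 to 1398 without single replicates. With DESeq2 size factors it was 892, with library totals 965 and with no filter 1182. Against control skin of week 2 the count was 1, and 2 with no filter, 711 with DESeq2, 544 with 1 fit, 641 with the replicate block and 0 to 206 without single replicates. Between weeks 1 and 2 of radiated skin it was 2, and 0 with library totals, 78 with DESeq2, 124 with 1 fit, 0 with the replicate block and 0 to 2 without single replicates. At an unadjusted p of 0.05 the block gave 1915 genes. Between weeks 2 and 3 it was 1487, and 3082 with DESeq2, 4754 with 1 fit, 1736 with the replicate block and 134 to 1833 without single replicates. Library totals gave 1229 higher and 502 lower genes there (1731), against 636 and 851, and a median over all genes of 0.25. The causes of these differences in count were not tested. Of 139 named genes called against sham, none changed direction under the 13 alternatives, and 37 were called under each. Of the 912 called genes 891 had groups without overlap, where leaving out a library can hardly turn the sign. The lack of reversals therefore tests little. Among genes not called, Col1a1 (0.08) turned to -0.036 with library totals and -0.12 with the replicate block, and without single replicates Col1a1 ran from -0.22 to 0.46, Cd3e from -0.17 to 0.58, Krt5 from -0.12 to 0.49 and Hoxc10 from -0.067 to 0.42. In simulated data for the sham comparison most changes of 1 on the log2 scale were missed, and genes at 0 counts in a group are bounded by the floor of 3 counts.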

Other observations

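Further genes of the lists moved against sham in places that the text above did not describe. Mc5r, the melanocortin receptor of sebaceous glands, was the single gene of 19 sebaceous lipid genes that fell (-1.90, adjusted p = 0.0453), from 15.8, 23.4 and 16.9 CPM in sham to 7.7, 7.31, 2.98 and 2.02 CPM in radiated week 2, and the median of that list was -0.91. Pdpn, podoplanin of lymphatic vessels and activated fibroblasts, rose by 1.79 (adjusted p = 0.0396), and was the single call among 6 lymphatic genes. Pmp22, a myelin protein gene of Schwann cells, rose by 1.53 (adjusted p = 0.0415), 1 of 12 Schwann cell genes. The Mc5r call was lost with the replicate block and without any 1 library other than radiated replicate 1. The Pdpn call was lost with the block and without any 1 sham replicate, radiated replicate 3 or radiated replicate 4. The Pmp22 call was lost without sham replicate 2 or 3 or radiated replicate 2 or 3. None of 12 blood vessel genes passed in edgeR, 7 had an unadjusted p under 0.05 (58.3% against 23.6% of all genes), and DESeq2's Wald test called 3 higher (25% against 6.85%) and 0 lower.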
